A study of Homo sapiens with 4 samples.

Results

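The 2 libraries of BT-474 NRP-1 cells, replicate 3 and replicate 2, were compared gene by gene, and the genes that differed most between them were described. Expected counts, the authors' estimates of the reads of each gene, were divided by the library sum and scaled to 1000000 (CPM). A gene was called divergent where its mean over the pair was at least 5 CPM and the log2 ratio of (CPM + 0.5), replicate 3 over replicate 2, was at least 1.5 in size. Of 18882 genes listed, 11761 passed the CPM floor and 116 were divergent (0.986%), with 60 higher in replicate 3 (0.51%) and 56 lower (0.476%). The genes were chosen by these very ratios, with 1 library a side, so the ratios are a description and carry no test.

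BT-474 is an established human breast cancer line of the luminal B-like type that carries extra copies of ERBB2. The control libraries, replicates 1 and 2, came from wild-type BT-474 cells, and the NRP-1 libraries, replicates 2 and 3, from BT-474 cells stably transfected with a plasmid (pPTuner IRES2) that carries NRP-1 cDNA. All cells grew in RPMI-1640 with 10% FBS, and the transfected cells were selected with Geneticin and isolated as colonies. The sources used here do not say whether the NRP-1 libraries came from separate clones, separate cultures or 1 culture. With 1 library a side, culture, clone, selection and NRP-1 level cannot be told apart within the pair. No library of cells with an empty plasmid was analysed here, so against the controls selection and NRP-1 cannot be told apart.

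NRP-1 (gene NRP1) is a cell surface co-receptor that binds class 3 semaphorins and forms of VEGF-A and lends its signal to plexins and growth factor receptors. In luminal breast cancer cells, growth is driven largely through the estrogen receptor and ERBB2. Genes for DNA replication are switched on as cells pass from G1 to S phase through E2F factors, mitotic genes follow in G2, and immediate early genes such as FOS respond within minutes to growth signals and stress.

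NRP1 had 7 and 8 reads in control replicates 1 and 2, 103 in NRP-1 replicate 2 and 62 in NRP-1 replicate 3. Both NRP-1 libraries lay above both controls, and the log2 ratio between them was -0.70. The 95% exact (Clopper-Pearson) counting interval ran from -1.22 to -0.27, and like every such interval here it is taken on the read ratio without the added 0.5 and covers counting error only. NRP1 was thus not divergent, and replicate 2 held more of its reads than replicate 3.

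The library sums were 8243595 and 8308030 reads in the controls and 8395510 and 8448926 in NRP-1 replicates 2 and 3, so depth was close to equal. All 10 luminal markers checked, among them KRT8, EPCAM, ERBB2 and ESR1, were read in every library. KRT14, DCN, PDGFRB, THY1, CD3E and CD14, which mark basal, fibroblast and immune cells, had 0 reads in all 4 libraries. The luminal markers summed to between 12351 and 15083 CPM per library, with 15083 in NRP-1 replicate 2 and 12726 in replicate 3. Among the other lists, the basal markers summed to 5.24 and 10.2 CPM, the fibroblast markers to 180 and 161 CPM, nearly all of it COL1A1, the immune markers to 76.0 and 78.6 CPM and the endothelial markers to 14.5 and 12.4 CPM in replicates 2 and 3. The immune sum was mostly LYZ, with 520 to 575 reads in every library, and CD68, with 320 and 281 in the controls and 107 and 89.4 in replicates 2 and 3. The basal TP63 had 12, 43, 40 and 74 reads. The part of these markers in the results was not tested.

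The control pair served as the background. By the same rule 10 of 11888 genes were divergent between control replicate 2 and control replicate 1 (0.0841%), of which 3 were higher in replicate 2 (0.0252%) and 7 lower (0.0589%). The counts depended on the setting, with 81 against 27 genes in FPKM, 293 against 87 with no floor and 86 against 1 among genes with whole counts only. The SD of the log2 ratio over genes was 0.48 in the NRP-1 pair and 0.23 in the control pair, and 591 against 26 genes were past 1. Of the 116 divergent genes 97 were also at the CPM floor in the control pair, where their median absolute log2 ratio was 0.19 and 2 were past 1.5. These were RGPD6, one of a family of near-identical copies, and the gene with ID 414216, which had no symbol in the tables used.

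The cut falls in a continuous range of values. Just inside it on the higher side were CCNA2 at 1.504 and CCDC34 at 1.515, and just outside were HR and ZNF367 at 1.498 and 1.484. On the lower side VEGFA at -1.505 and DRAIC at -1.508 were inside, and ADM and SPRY1 at -1.498 and -1.494 were outside.

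DNA replication and mitosis genes stood together on the side of NRP-1 replicate 3. Of 72 genes of a G2/M and mitosis list all 72 were higher in replicate 3, with a median log2 ratio of 1.05, and of 65 genes of a G1/S and DNA replication list all 65 were higher, with a median of 1.26. Over all 11761 genes 5798 were higher (49.3%) and the median was -0.01. In the control pair the medians of the same lists were 0.28 and 0.16, with 0 genes past 1 in either. Together the 137 genes ranged from 0.14 to 1.95, and 14 of them were divergent. Whether more cells were cycling or each cycling cell held more of this RNA cannot be told apart in bulk RNA.

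The lists lay differently against the controls. Over all tested genes 49% were above and 36.3% below both controls in NRP-1 replicate 2, and 50% were above and 37.6% below in replicate 3. Of the 65 replication genes 54 were below both controls in NRP-1 replicate 2 and 64 were above both in replicate 3. Of the 72 mitosis genes 63 were already above both controls in replicate 2 and all 72 were in replicate 3. The medians against the control mean were -0.46 and 0.85 for replication genes, in replicates 2 and 3, and 0.53 and 1.60 for mitosis genes.

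Among the replication genes, MCM5, a subunit of the helicase that opens DNA, had 270 and 360 reads in the controls, 206 in NRP-1 replicate 2 and 811 in replicate 3 (log2 ratio 1.95). MCM2, another subunit of this helicase, had 841, 966, 613 and 1857 reads in the same order (1.58). CDC45, which completes the active helicase, had 120, 150, 88 and 319 reads (1.80). Each of these genes was lowest in NRP-1 replicate 2 and highest in replicate 3, with the controls between. TK1, the thymidine kinase of S phase, had 532 and 530 reads in the controls, 290 in replicate 2 and 985 in replicate 3 (1.74). The helicase partner GINS2 went from 70 to 232 reads between replicates 2 and 3 (1.66), beside 105 and 127 in the controls. POLA2, a subunit of the polymerase that primes DNA synthesis, had 271, 307, 226 and 663 reads in control replicates 1 and 2 and NRP-1 replicates 2 and 3 (1.53). All of these lay below both controls in replicate 2 and above both in replicate 3.

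The same order held for MCM10, a replication initiation factor, with 266, 251, 179 and 582 reads (1.67). It held too for POLD1, the catalytic subunit of a replicative polymerase, with 282, 329, 189 and 552 reads (1.52). EXO1, an exonuclease of DNA repair, had 216, 229, 116 and 390 reads (1.70) and was again lowest in replicate 2 and highest in replicate 3. UHRF1, which carries DNA methylation through replication, had 256 and 300 reads in the controls, 276 in replicate 2 and 811 in replicate 3 (1.53), so for this gene replicate 2 lay between the controls.

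Of the mitosis list 3 genes were divergent, CCNA2, AURKB and MYBL2. Cyclin A2 (CCNA2) had 236 and 281 reads in the controls, 292 in NRP-1 replicate 2 and 841 in replicate 3. AURKB, a mitotic kinase, had 118, 157, 120 and 407 reads (1.72). MYBL2, a transcription factor of the cell cycle, had 405, 468, 342 and 1065 reads (1.62). Against the control mean, replicate 2 stood at 0.15, -0.21 and -0.37 for these genes, while replicate 3 was above both controls. In CPM, AURKB (barely) and MYBL2 lay below both controls in replicate 2, unlike most of their list. Of its 72 genes 63 lay above both controls in replicate 2 and 3 below.

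The promoters of GINS2 and POLA2 are shown because they stand for the replication genes and hold the letters TTTNNCGC, a part of E2F binding sites. The runs are the 150 bases before the RefSeq transcription start in GRCh38.p14, 5′ to 3′ on the gene's strand, at chr16:85688955-85689104 (minus strand) for GINS2 and chr11:65261812-65261961 (plus strand) for POLA2. Capitals mark the match, on either strand, which begins at -31 in GINS2 and at -53 in POLA2.
GINS2: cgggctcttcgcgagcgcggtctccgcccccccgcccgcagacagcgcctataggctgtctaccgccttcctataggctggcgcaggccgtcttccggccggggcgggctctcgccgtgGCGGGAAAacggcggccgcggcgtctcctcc
POLA2: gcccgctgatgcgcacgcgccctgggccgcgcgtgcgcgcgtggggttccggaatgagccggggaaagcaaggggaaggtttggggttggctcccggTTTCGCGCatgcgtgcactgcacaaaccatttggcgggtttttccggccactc

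These letters were searched on both strands from 250 bases before to 50 after the start, in a search added after the values were seen. They were present in 5 of 12 divergent cell cycle genes with a promoter in the table (41.7%). They were in 13 of 45 genes higher in replicate 3 (28.9%), which include these 12, and in 3 of 40 lower (7.5%). The share of all tested genes was 1014 of 9456 (10.7%). CCAAT was found in 46.7% of the higher and 52.5% of the lower genes, beside 37.3% of all, and TTTGAA in 6.67% and 12.5%, beside 9.35%. Of the 12 divergent cell cycle genes 6 held CCAAT (50%) and 0 held TTTGAA. The interferon-stimulated response element was in 2.22% of the higher and 0 of the lower genes, beside 2.49% of all, and the heat shock element was in 0 of either, beside 0.264% of all. A match describes letters in a window and is no sign of binding.

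The 3 divergent genes of the estrogen receptor and luminal list were low in NRP-1 replicate 2 and close to the controls in replicate 3. GREB1, an estrogen-induced cofactor of the receptor, had 6866 and 6419 reads in the controls, 1489 in NRP-1 replicate 2 and 6701 in replicate 3 (log2 ratio 2.16, counting interval 2.08 to 2.24). TFF1, the estrogen-induced trefoil peptide, had 5011, 4795, 1159 and 4959 reads (2.08). IGFBP4, which binds insulin-like growth factors, had 4632, 4298, 1267 and 3822 reads (1.58). In all 3 the controls and replicate 3 stood together and replicate 2 alone was low, at log2 values against the control mean of -2.18, -2.10 and -1.83.

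Over the 32 genes of the estrogen receptor and luminal list 21 were higher in replicate 3, and the median was 0.17. On the higher side 7 were past 1 and on the lower side 2, beside 349 and 242 of all 11761 tested genes. In replicate 2, 13 of the 32 were above and 17 below both controls, and in replicate 3, 19 were above and 10 below. The receptor itself, ESR1, had 395 and 437 reads in the controls, 273 in replicate 2 and 735 in replicate 3 (1.41). The progesterone receptor PGR had 702, 717, 419 and 1138 (1.42). Each was under the cut, with replicate 2 below and replicate 3 above both controls. The luminal factor GATA3 went the other way, with 184, 186, 688 and 289 reads (-1.25), so the list held both directions.

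Other divergent genes were low in replicate 2 alone. PREX1, an exchange factor for Rac, had 5282 and 4844 reads in the controls, 1521 in replicate 2 and 6492 in replicate 3 (2.08). IRS1, which links insulin receptors to PI3-kinase, had 137, 81, 24 and 100 reads (1.88). TEX14, a protein of intercellular bridges, had 299, 217, 56 and 263 (2.14). In these genes the controls and replicate 3 overlapped or lay close. A matrix list of 30 genes had a median of -0.04 and 2 divergent genes. LOXL4, a lysyl oxidase, had 431, 472, 185 and 788 reads (2.06). SPOCK1, a proteoglycan, had 86, 99, 19 and 91 reads (2.03). OAS3, an interferon-induced antiviral enzyme, had 171, 143, 46 and 163 reads (1.73) in an interferon list of 25 genes with 8 higher in replicate 3 and a median of -0.11.

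Other genes stood above the controls mainly in replicate 3. SYNE1, a nuclear envelope linker protein, had 9 and 20 reads in the controls, 27 in replicate 2 and 158 in replicate 3 (2.37). LDHB, a lactate dehydrogenase subunit, had 66, 66, 62 and 245 reads (1.90). The chemokine CXCL5 had 20.1, 15.1, 23.0 and 92.6 (1.82). In these 3 genes replicate 3 stood above the other 3 libraries. SDK2, a cell adhesion molecule, had 40, 31, 11 and 132 reads (3.15). BRINP2, a protein best known from neurons, had 84, 70, 11 and 178 (3.57). For SDK2 and BRINP2 replicate 2 was below and replicate 3 above both controls.

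TXNIP and ARRDC4, paralogous alpha-arrestins that restrain glucose uptake, were above the controls in both NRP-1 libraries and highest in replicate 3. TXNIP had 183 and 165 reads in the controls, 692 in replicate 2 and 2640 in replicate 3, a log2 ratio of 1.92 within the pair. ARRDC4 had 53, 57, 163 and 536 reads, a ratio of 1.68. Against the control mean TXNIP stood at 1.95 and 3.86 and ARRDC4 at 1.48 and 3.16 in replicates 2 and 3, so the direction from control was the same in both libraries and the size was not. The only other divergent gene more than 1 above the control mean in both libraries was PWWP3B, which had 9, 7, 95 and 28 reads and was higher in replicate 2.

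Both genes are known targets of MondoA and ChREBP, which bind E-box-like elements, and their promoters are shown for that reason, with the letters CACGNG in capitals on either strand. The runs are again the 150 bases before the RefSeq start in GRCh38.p14, at chr1:145996580-145996729 (minus strand) for TXNIP, with 3 matches, and chr15:97960553-97960702 (plus strand) for ARRDC4, with 2 matches that overlap.
TXNIP: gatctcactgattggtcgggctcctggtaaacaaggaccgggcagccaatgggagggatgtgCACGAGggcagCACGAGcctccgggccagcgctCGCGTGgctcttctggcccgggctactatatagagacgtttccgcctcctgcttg
ARRDC4: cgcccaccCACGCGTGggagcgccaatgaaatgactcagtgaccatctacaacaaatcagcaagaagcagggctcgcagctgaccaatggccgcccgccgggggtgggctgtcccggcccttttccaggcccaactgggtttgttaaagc

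CACGNG, also added after the values were seen, was present in 48.9% of the genes higher in replicate 3 and 47.5% of the lower, beside 42.1% of all tested genes. The share was thus close to that of all genes in both directions. Of the 12 divergent cell cycle genes with a promoter in the table, all among the higher genes, 8 held these letters (66.7%).

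On the other side, immediate early genes were lower in NRP-1 replicate 3. Of 29 such genes 25 were lower, 11 of them past -1, beside 5963 and 242 of all 11761 tested genes. The list's median was -0.91 against -0.01 over all genes and -0.01 in the control pair. FOS, a subunit of the AP-1 factor, had 1384 and 1059 reads in the controls, 1011 in replicate 2 and 192 in replicate 3 (-2.38). Its paralogue FOSB had 386, 198, 181 and 39 reads (-2.11). For both, only replicate 3 was more than 1 below the control mean, while FOSB differed between the controls as well, by -0.96. ATF3, a stress-induced factor of the same bZIP class, had 344 and 280 reads in the controls, 85 in replicate 2 and 26 in replicate 3 (-1.57), so it was below the controls in both NRP-1 libraries. EGR1 (-1.31), DUSP1 (-1.27) and JUN (-0.95) had the same sign below the cut, and MYC was an exception, with 1113, 1116, 231 and 553 reads (1.24).

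The promoters of FOS and FOSB are shown because these genes were the lowest of their list and both hold the letters of a TATA box, TATAAA in capitals, at -33 and -30. They are the 150 bases before the RefSeq start in GRCh38.p14, at chr14:75278678-75278827 and chr19:45467846-45467995, both on the plus strand.
FOS: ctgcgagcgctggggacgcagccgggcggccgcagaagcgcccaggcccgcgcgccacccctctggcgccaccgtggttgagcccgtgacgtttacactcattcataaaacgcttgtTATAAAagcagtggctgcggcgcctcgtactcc
FOSB: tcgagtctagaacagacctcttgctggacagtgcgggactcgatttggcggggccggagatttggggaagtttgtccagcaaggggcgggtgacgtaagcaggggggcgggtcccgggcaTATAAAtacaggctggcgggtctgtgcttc

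TATAAA was present on either strand in 7 of 40 promoters of genes lower in replicate 3 (17.5%) and 4 of 45 of those higher (8.89%), beside 502 of 9456 tested genes (5.31%).

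Hypoxia and glycolysis genes had the same direction. Of 37 genes 35 were lower in replicate 3 and 11 were past -1, beside 5963 and 242 of all 11761 tested genes. The list's median was -0.68, and the median of the control pair was 0.00. NDRG1, a stress-responsive gene induced in hypoxia, had 4548 and 4999 reads in the controls, 5849 in replicate 2 and 1613 in replicate 3 (-1.86). VEGFA, the angiogenic factor that is itself a ligand of NRP-1, had 4999, 4867, 2524 and 892 reads, below both controls in both NRP-1 libraries. The glycolytic enzyme gene PGK1 had 5456, 5549, 11935 and 5028 reads (-1.26), so replicate 2 stood above the controls and replicate 3 beside them. Over the list 24 genes were above both controls in replicate 2, beside 49% of all tested genes, and 24 below both in replicate 3, beside 37.6%.

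Other genes were, like FOS, more than 1 below the control mean in replicate 3 alone. PIP, a secreted apocrine protein, had 389 and 335 reads in the controls, 240 in replicate 2 and 35 in replicate 3 (-2.65), while the other 15 genes of its apocrine and androgen receptor list lay between -1.30 and 1.33. SPRY4, a feedback inhibitor of MAPK signalling, had 216, 296, 295 and 85 reads (-1.75). Its MAPK feedback list of 19 genes had 7 higher in replicate 3 and a median of -0.215. Both PIP and SPRY4 were lowest in replicate 3, and SPRY4 was within the range of the controls in replicate 2. PTPRH, a receptor tyrosine phosphatase, had 233, 196, 123 and 15 reads (-2.74). The Ras-like gene RASD1 had 341, 351, 191 and 40 (-2.15). For these genes replicate 2 lay below both controls as well, at -0.80 and -0.86 against their mean. BHLHE40, a transcriptional repressor, had 818, 685, 598 and 179 reads (-1.73). YPEL2 had 1656, 1476, 1369 and 372 (-1.88). SPAG4, a SUN-domain protein, had 55, 55, 83 and 11 reads (-2.53).

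A further set was more than 1 above the control mean in replicate 2 alone. TP53INP2, which acts in autophagy, had 2592 and 2989 reads in the controls, 7195 in replicate 2 and 2061 in replicate 3 (-1.81). The peptide endothelin-1 (EDN1) had 90, 115, 380 and 96 reads (-1.95). CASP14, a caspase of the epidermis, had 36.3, 49.0, 242 and 57.8 (-1.99). In all 3, replicate 2 was the highest library by far and replicate 3 lay near the controls. ACKR3, a scavenger receptor of CXCL12, had 19, 24, 99 and 23 reads (-1.93). GPRC5A, an orphan receptor induced by retinoic acid, had 19, 19, 109 and 26 (-1.92). These genes had few reads outside replicate 2. TBX10, a T-box factor, had 18, 17, 94 and 18 reads (-2.15). AKAP2, an anchor of protein kinase A, had 23, 15, 98 and 16 (-2.35). ST6GALNAC1, which makes the sialyl-Tn sugar, had 14, 24, 82 and 7 reads (-2.95). For each of these genes except ST6GALNAC1 replicate 3 was within 1 of the control mean.

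Replication-dependent histone genes were in that set too, opposite in direction to the replication genes. H2BC21 had 53.5 and 41.2 reads in the controls, 222 in replicate 2 and 52.4 in replicate 3 (-2.01). H2BC5 had 64.8, 76.7, 219 and 74.3 (-1.52). H2AC18 and its near-identical copy H2AC19 each had 27.5, 36.5, 93.8 and 21.4 reads (-1.94), with identical values in every library. Of 25 listed histone genes 5 passed the CPM floor and all 5 were lower in replicate 3, with a median of -1.52. These transcripts mostly lack a poly-A tail, and the libraries were enriched with oligo(dT). How far these reads stand for histone RNA as a whole was not tested. The only neighbouring tested genes that were divergent in the same direction were H2AC18, H2AC19 and H2BC21 on chromosome 1, which held 16 of the 113 divergent genes that were placed (14.2%, beside 10.1% of all tested genes).

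Listed ER chaperones and heat shock proteins at the CPM floor mostly shifted in opposite directions without reaching the cut. Of 29 ER chaperone and degradation genes 28 were lower in replicate 3 (median -0.50), led by HSPA5, the chaperone BiP, with 36776, 36285, 19350 and 8537 reads (-1.19). Of 29 listed cytosolic heat shock genes 23 passed the CPM floor. Of these 21 were higher (median 0.46), among them HSPA8 (0.70) and HSP90AA1 (0.62). The inducible HSPA6, under the floor, went the other way, from 51 reads in replicate 2 to 5 in replicate 3. HSPA1A and HSPA1B lay at -0.05 and 0.00. CLGN, an ER chaperone outside the list, was divergent, with 1507, 1348, 476 and 118 reads (-1.98). The ER oxidase ERO1B was divergent too, with 141, 134, 86 and 20 reads (-1.91). Ribosomal protein genes had a median of 0.13 with 69 of 75 higher, and respiratory chain genes 0.15 with 60 of 74 higher. In the control pair their medians were -0.20 and -0.03, so the ribosomal list differed by more between the controls.

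Of the 36 lists, 23 medians were within 0.2 of 0 in the NRP-1 pair, among them p53 targets (-0.11), cholesterol synthesis (-0.05), fatty acid synthesis (0.04), extracellular matrix (-0.04) and integrins (0.03). The integrated stress response list of 38 genes also had a median near 0 (0.03), yet ATF3 and VEGFA were divergent. In this list 7 genes were past -1 and 1 past 1, beside 242 and 349 of all 11761 tested genes. Other genes were fixed by name. DDIT3, the stress factor CHOP, had 2621 and 2693 reads in the controls and 623 and 555 in replicates 2 and 3, a log2 ratio of -0.17. TNC, the matrix protein tenascin-C, had 45.1, 68.7, 449 and 923 reads (1.02). The intermediate filament gene VIM had 69, 48, 371 and 147 (-1.32). Both were above the controls in both NRP-1 libraries, TNC more in replicate 3 and VIM more in replicate 2. ACE, APOD, P2RX6, HSPA6 and TNF were under the CPM floor in the NRP-1 pair. HSPA6, an inducible heat shock protein, had 268, 392, 51 and 5 reads (-2.59).

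Across the 116 genes, the distance from the control mean was past 1 in replicate 3 alone for 59, in replicate 2 alone for 28, in both on the same side for 9, in both on opposite sides for 7 and in neither for 13. Over all 11761 genes 4.06% were past 1 in replicate 2 and 7.47% in replicate 3. Of the 60 higher genes 50 were above both controls in replicate 3 and 49 below both in replicate 2, beside 50% and 36.3% of all tested genes. Of the 56 lower genes 45 were below both controls in replicate 3, beside 37.6%, and 31 above both in replicate 2, near the 49% of all tested genes. The rule used the same libraries, so nothing is read from these counts. Both distances use the same controls, so their spread along the diagonal is not independent, and the rule fixes their separation from it.

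In the comparison of the groups, edgeR (quasi-likelihood test, p adjusted by Benjamini-Hochberg) called 156 of 14298 genes (1.09%). Of the divergent genes 115 were tested and 0 were called, with 25 at an unadjusted p under 0.05, beside 22.9% of all 14298 genes. DESeq2 called 12 of the 115, beside 6.67% of all. The lowest adjusted p from edgeR was 0.0622, for STRC, a gene with a near-identical pseudogene, with 738 and 530 reads in the controls, 149 in replicate 2 and 47 in replicate 3, a log2 fold change of -2.75 (standard error 0.49). ATF3 and TXNIP shared the next adjusted p from edgeR, 0.068, with log2 fold changes of -2.55 (standard error 0.48) and 3.20 (standard error 0.62). The genes were selected on the difference that enters this test's error, and their median standard error was 0.57 against 0.20 over all tested genes, so nothing is read from these calls.

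The most extreme ratios belonged to genes that share reads with others. Of the 116 genes 17 were readthrough genes, near-identical copies, members of multigene families or antisense partners by a list made for this work, which does not hold STRC or ID 414216, and once these 17 were summed with their partners, 10 were under 1 and 3 were past 1.5. BMS1P2 had 208, 278, 0 and 308 reads, and the gene with ID 414216, which has the same listed length of 4704 bases, had 97.5, 22.2, 439 and 6.74. Their sum was 305, 300, 439 and 315 reads, a log2 ratio of -0.48. CHKB-CPT1B had 8.59, 0, 179 and 0 reads, at least 59.9-fold lower in replicate 3 against a floor of 3 reads, yet summed with CHKB and CPT1B the ratio was 0.09. RPS10-NUDT3 and INO80B-WBP1 came to 0.25 and -0.42 with their partners, and RGPD6 and GOLGA6L22 to -0.23 and -0.94. ARHGAP11B remained at 1.01 with ARHGAP11A, TYMSOS at 1.48 with TYMS, and MST1 and the H2AC18 pair at -1.53 and -2.04.

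Divergent genes had a median of 16.3 CPM, beside 39.2 over all tested genes, and a median length of 3007 bases, beside 3047. Over 5 equal groups by gene length the median log2 ratio went from 0.11 in the shortest to -0.10 in the longest genes, and the part of length in the result was not tested.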

How the data were processed

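RNA of 2 control and 2 NRP-1 libraries of BT-474 cells was enriched with oligo(dT) and sequenced on an Illumina HiSeq instrument. Per the submitters' processing notes the authors used bcl2fastq 2.16, HISAT2 2.0.1, Bowtie2 2.2.5 and RSEM. These notes list both GRCh38 and hg19, so no coordinates are taken from the files. The expected counts deposited per library were not normalized, and 32.8% of values above 0 were not whole (tolerance 0.005). The authors' FPKM values, normalized for length and mapped reads, served only as an alternative, and the deposited gene lengths only as a description. A table of the authors' own group comparison, with mean FPKM, log2 ratios and probabilities, was not used. Strand was not stated, so antisense genes cannot be told apart from their partners.

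Genes missing from a library's table were taken as 0. CPM used the sum of expected counts, with a pseudocount of 0.5 CPM, a floor of 5 CPM on the pair's mean and a cut of 1.5. Of 18882 gene IDs 99.4% had a symbol, from RefSeq (GRCh38.p14) or, failing that, GENCODE. Promoter sequences are RefSeq's, matched by gene ID. Counts were rounded and tested between groups with edgeR 4.0.16 (TMM, filterByExpr, quasi-likelihood) and DESeq2 1.42.0 in R 4.3.3, and with Python 3.11.15 and scipy 1.17.1. The rules were checked on simulated data. Replicates are libraries whose separate origin is not stated, so p-values measure the spread between these libraries only.

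The members and lists were chosen with earlier results of these data known. Named genes are NRP1, the 12 highest and 12 lowest divergent genes, divergent genes of a list (up to 6 per list, some of which are not reported here), genes nearest the cut and 9 further genes fixed by name. All others named were chosen after their values were seen, among them TXNIP, ARRDC4, ESR1, PGR, GATA3, MYC, PGK1, HSPA5 and genes that were divergent but in no list, as were the motifs TTTNNCGC and CACGNG.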

Additional observations from a re-analysis of the deposited data

How the results depend on the processing

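The count of 116 divergent genes in the NRP-1 pair, beside 10 in the control pair, depended most on the floor and the cut. It was 75 (control pair 6) with a pseudocount of 2 CPM, 234 (56) at a mean of at least 1 CPM, 293 (87) with no floor, 45 (1) at a mean of at least 20 CPM, 591 (26) at a cut of 1 and 30 (4) at a cut of 2. It was 134 (11) with a pseudocount of 0.1 CPM and 116 (10) with TMM library sizes. With FPKM in place of CPM it was 81, of which 54 were among the 116, and 27 in the control pair, of which 1 was among its 10. An FPKM floor admits other genes than a CPM floor, and the cause of the shift was not tested. In alternatives added after the values were seen, genes with whole counts only gave 86 (1) and genes that share no reads 99. The NRP-1 pair held more divergent genes than the control pair under each of these settings where both were computed. Between the groups, edgeR called 156 genes and DESeq2 953. With no low-count filter edgeR called 0, with 3297 at an unadjusted p under 0.05. Leaving out 1 library gave between 0 and 5414, with 0 without either control and 5414 and 4159 without NRP-1 replicate 2 and replicate 3, where the lone library is assumed to vary like the controls. Of the divergent genes DESeq2 called 12, and leaving out 1 library gave between 0 and 91. No paired analysis was possible because the groups share only replicate number 2, and the labels tie no library to another. Groups of 2 libraries allow no test for a single outlying library.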
